A study of Mus musculus with 4 samples.

Results

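The PI3K, Akt and mTOR pathway was examined in antigen-specific mouse T cells through 38 listed genes, which cover the subunits of PI3K, its lipid phosphatases, Akt and its regulators, both mTOR complexes, and the inhibitors and substrates of mTORC1. All 38 symbols matched an Ensembl identifier among the 39179 in the count tables, and 37 passed the filter on low counts; the exception was Deptor, an inhibitor within the mTOR complexes, with 4 and 3 counts in the Tfh libraries and 10 and 5 in the non-Tfh libraries.

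OT-II donors supplied CD4 T cells with 1 transgenic receptor for ovalbumin, which were moved into C57BL/6 hosts that were then immunised subcutaneously with nitrophenol coupled to ovalbumin. On day 8 the transferred Thy-1.1+ cells of pooled inguinal lymph nodes were sorted into T follicular helper (Tfh) cells, gated as CD44hi CXCR5+ PD-1+, and non-Tfh cells, gated as CXCR5- PD-1-; whether CD44hi also held for the non-Tfh gate is not plain from the labels. Each group has 2 stranded total RNA libraries, numbered T32 and T53, so both groups share receptor, host strain, antigen, day and Thy-1.1. The ages of the mice, the number of mice pooled and what the library numbers stand for are not given, so a p-value here reflects the spread among these libraries alone, and that spread may be technical.

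Class I PI3K makes the membrane lipid PIP3 when antigen, costimulatory or chemokine receptors are engaged. PIP3 brings Akt to the membrane, where Pdpk1 and mTORC2 phosphorylate it. Akt then restrains the TSC complex and FOXO factors, and mTORC1 is released to drive protein synthesis. In CD4 T cells signals through this pathway, much of them from ICOS, are needed for Tfh cells to form. The proteins are controlled largely by phosphorylation, which RNA does not show.

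Total counts ran from 5725358 (Tfh T53) to 13360563 (non-Tfh T32). The sorting genes followed the gates: Cxcr5 had 748 and 713 CPM (CPM, read counts scaled to library size with edgeR's TMM factors) in Tfh cells, against 52.7 and 56.1 in non-Tfh cells, and Pdcd1 had 537 and 577, against 57.1 and 53.5. Cd4, a defining marker of these cells, had 1047 and 1063 CPM in Tfh cells, against 928 and 916 in non-Tfh cells. The 10 B cell markers summed to 145 and 141 CPM in Tfh cells, against 11.8 and 20.3 in non-Tfh cells. Most of this was Cd22, with 139.7 and 134.7 CPM, against 9.62 and 14.9. Without Cd22 and Pax5, a pair set aside after their values were seen, the sums were 0.419 and 1.40 CPM, against 2.16 and 4.95. The 8 macrophage and monocyte markers summed to 4.95 and 4.90 CPM in Tfh cells, against 2.61 and 7.20 in non-Tfh cells.

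Of the 37 genes tested, 2 were higher and 5 lower in Tfh cells at an adjusted p of 0.05 in edgeR's quasi-likelihood test. These 7 are 18.9% of the genes tested, beside 8.49% of all 11702 genes tested; 4.47% of all genes were called higher and 4.02% lower. Without Tfh T53 the counts were 0 higher and 3 lower, without Tfh T32 they were 2 and 3, and without either non-Tfh library they were 1 and 4. At an unadjusted p under 0.05 there were 14 of the 37, beside 22.0% of all genes, and 6 differed at least 2-fold, beside 9.98%. The genes that fell were Pik3r5, Pik3ap1, Pik3ip1, Sesn1 and Pik3r1, and those that rose were Ddit4 and Mapkap1. Of these, Pik3ap1 passed the count filter through the non-Tfh libraries alone, and Mapkap1 lay at the threshold (edgeR adjusted p = 0.0497). The list was chosen with earlier results of these data known, so its share of called genes is a description and no test. The median log2 fold change (Tfh over non-Tfh) was 0.030, beside -0.0053 over all genes, and 27 of the 37 lay within 1.5-fold, beside 80.2% of all genes. Both Tfh libraries lay above or below both non-Tfh libraries for 56.8% of the 37, beside 52.2% of all genes, a share near the background. No catalytic subunit of PI3K, neither Akt1 nor Akt2, and no gene of TSC or Rheb was among the 7. In sorted bulk samples, fewer cells with a transcript and less of it per cell cannot be told apart.

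**Figure D1:**
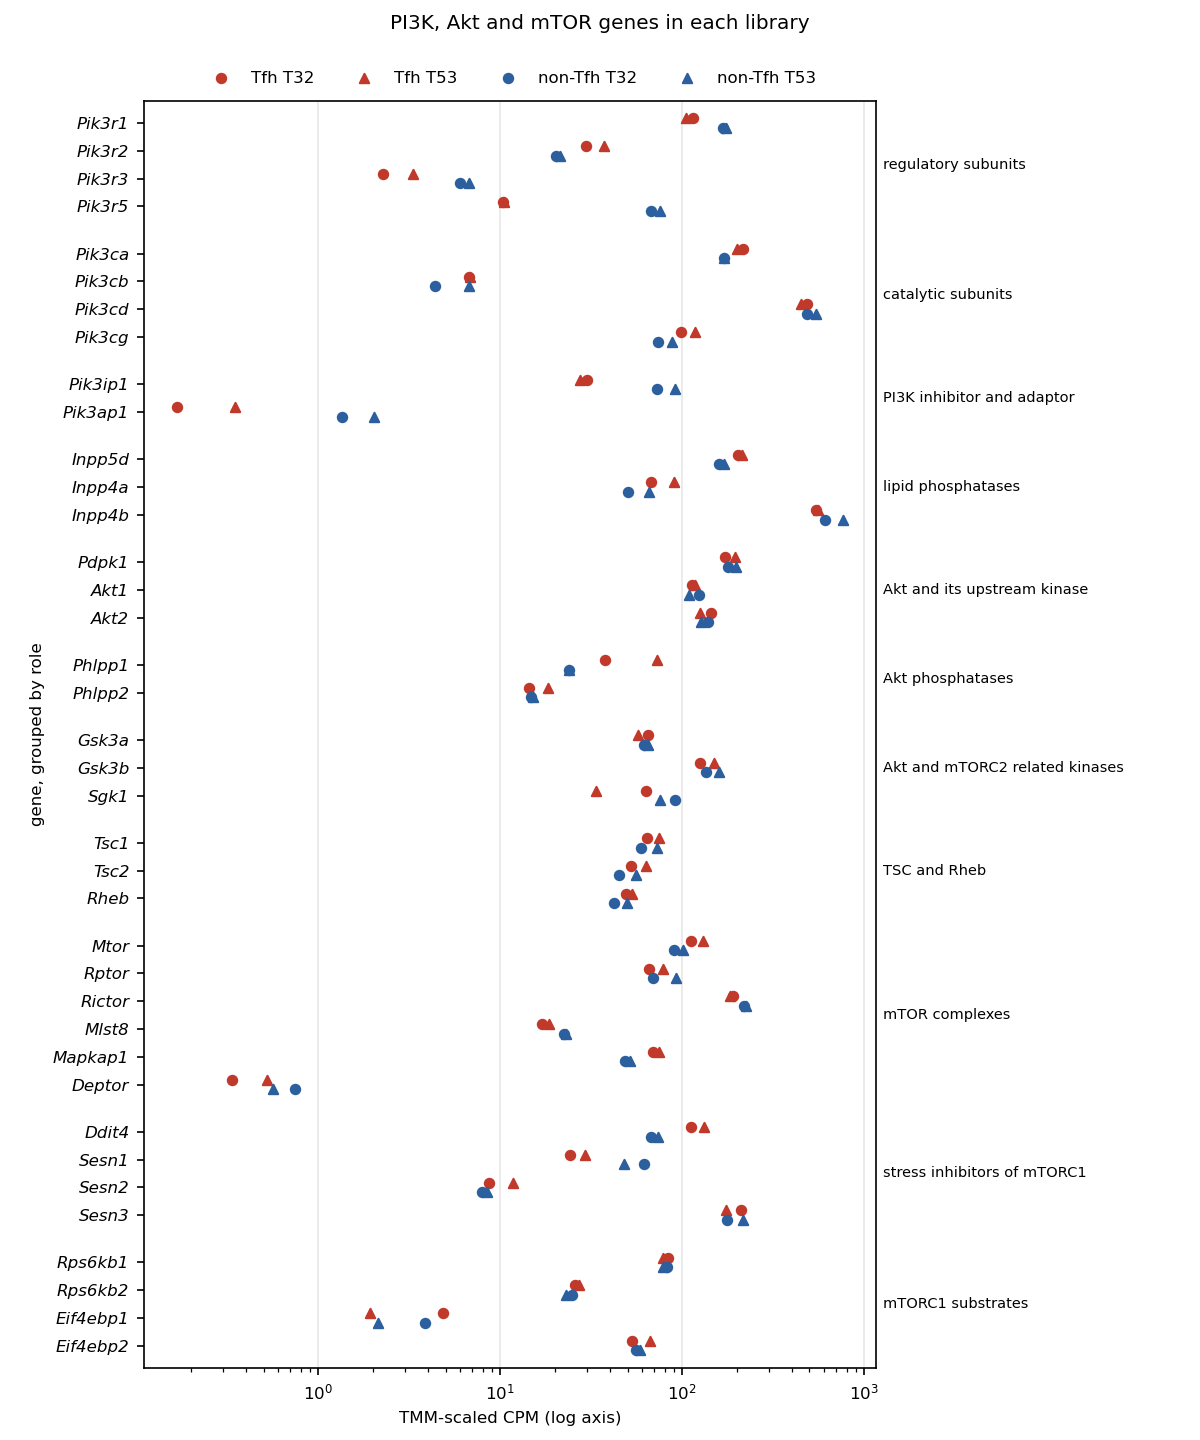
TMM-scaled CPM (log axis) of the 38 genes in each library, grouped by role; red marks are Tfh and blue marks non-Tfh libraries, circles T32 and triangles T53. Pik3r5 lies near 10.4 CPM in both Tfh libraries, against 67.6 and 75.4 CPM in the non-Tfh libraries, while the points of Akt1 and Akt2 overlap.

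The promoters of Pik3r5, Pik3r1 and Sesn1 are shown. These genes fell and their windows hold few or no annotated exon bases. The window of Pik3ap1, which also fell, holds 0 such bases but is not shown. Each window shown is the 250 bases before a RefSeq start on GRCm38.p6, read 5′ to 3′ on the gene's strand. Pik3r1 and Sesn1 each have 2 such windows, and only that nearest the principal transcript is shown. The window shown for Sesn1 lies inside the annotated span of the gene. Capitals mark any of 4 motifs searched on both strands: the forkhead core GTAAACA, the hypoxia response core ACGTG, the STAT and Bcl6 type palindrome TTCNNNGAA and the KLF box GGGTGG. The KLF box stands in capitals as written in Pik3r1 (chr13:101768218-101768467, minus strand) and on both strands in Sesn1 (chr10:41887189-41887438, plus strand), and Pik3r5 (chr11:68431875-68432124, plus strand) holds none of the 4.
Pik3r5: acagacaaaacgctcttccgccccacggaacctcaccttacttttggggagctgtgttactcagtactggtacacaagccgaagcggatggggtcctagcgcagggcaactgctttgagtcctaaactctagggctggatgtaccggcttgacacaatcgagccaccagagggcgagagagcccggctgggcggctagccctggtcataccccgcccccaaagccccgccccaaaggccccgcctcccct
Pik3r1: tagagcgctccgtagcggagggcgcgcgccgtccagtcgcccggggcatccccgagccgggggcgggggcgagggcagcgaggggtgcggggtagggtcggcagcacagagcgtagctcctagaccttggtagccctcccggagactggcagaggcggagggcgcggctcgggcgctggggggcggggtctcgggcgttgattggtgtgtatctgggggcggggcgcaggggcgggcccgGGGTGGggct
Sesn1: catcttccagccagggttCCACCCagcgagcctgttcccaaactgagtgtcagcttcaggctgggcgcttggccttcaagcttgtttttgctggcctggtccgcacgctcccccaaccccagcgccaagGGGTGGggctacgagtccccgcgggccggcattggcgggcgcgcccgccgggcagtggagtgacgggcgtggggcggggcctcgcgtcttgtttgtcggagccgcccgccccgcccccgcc

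Of the 38 genes, 35 had a RefSeq window, for which the start nearest the principal transcript was used. The KLF box occurred in 14 of these 35 windows and in 4 of the 7 windows of called genes, beside 28.1% of all 32851 windows of that length. Those 32851 windows include every RefSeq start of a gene, whereas each listed gene has 1 window here, so the shares are not fully alike. Among the 4, the window of Pik3ip1 lies wholly in annotated exons (250 bases), and that of Mapkap1 holds 78 such bases. The forkhead core occurred in 2 of the 35 (Mapkap1 and Pik3cg), beside 3.17% of all windows. The hypoxia core occurred in 8, among them the called genes Ddit4 and Pik3ap1, beside 16.6%, and the palindrome in 2, beside 7.02%. These are matches of letters and were not tested.

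The regulatory subunits hold, stabilise and recruit the catalytic subunits. Pik3r5 (ENSMUSG00000020901, GRCm38 chr11:68432121-68497849, plus strand) encodes the subunit that couples the catalytic subunit Pik3cg to G protein-coupled receptors such as chemokine receptors. It had 10.4 and 10.5 CPM in the Tfh libraries, against 67.6 and 75.4 CPM in the non-Tfh libraries. Both Tfh libraries lay far below both non-Tfh libraries, and the Tfh pair hardly differed. Pik3r5 fell 6.84-fold (log2 fold change -2.77 ± 0.144 SE, edgeR adjusted p = 0.000385), with -2.85 to -2.69 when each library was left out in turn.

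Pik3r1, the main regulatory subunit of class IA PI3K (chr13:101680563-101768217, minus strand), had 115 and 105 CPM in Tfh cells, against 167 and 174 CPM in non-Tfh cells. The groups did not overlap. It fell 1.55-fold (-0.63 ± 0.114, edgeR adjusted p = 0.0235), and the call was lost without Tfh T32 (adjusted p = 0.0725) and without Tfh T53 (0.166). Its relative Pik3r2 had 29.4 and 36.9 CPM in Tfh cells, against 20.3 and 21.3 in non-Tfh cells, and did not pass (log2 fold change 0.67 ± 0.166, adjusted p = 0.0614). Pik3r3, a shorter class IA regulatory subunit, had 2.26 and 3.32 CPM in Tfh cells, against 6.04 and 6.75 in non-Tfh cells, and did not pass either (-1.23 ± 0.323, adjusted p = 0.0719).

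Per kilobase of exon, which puts genes of different length on 1 scale, Pik3r1 made up 60.4% and 52.5% of the summed class IA regulatory level in the Tfh libraries, against 73.4% and 73.1% in the non-Tfh libraries. Pik3r2 made up 37.3% and 44.4% in Tfh, against 21.6% and 21.5% in non-Tfh libraries. The share of Pik3r1 was lower and that of Pik3r2 higher in both Tfh libraries. Shares of 1 sum depend on each other, and these restate the CPM values above. The ratio of summed regulatory to summed catalytic level of class IA was 0.184 and 0.211 in Tfh, against 0.233 and 0.222 in non-Tfh libraries. With 2 libraries per group an exact two-sided permutation test of such a share cannot go below p = 0.333, and no test of the shares was run.

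**Figure D2:**
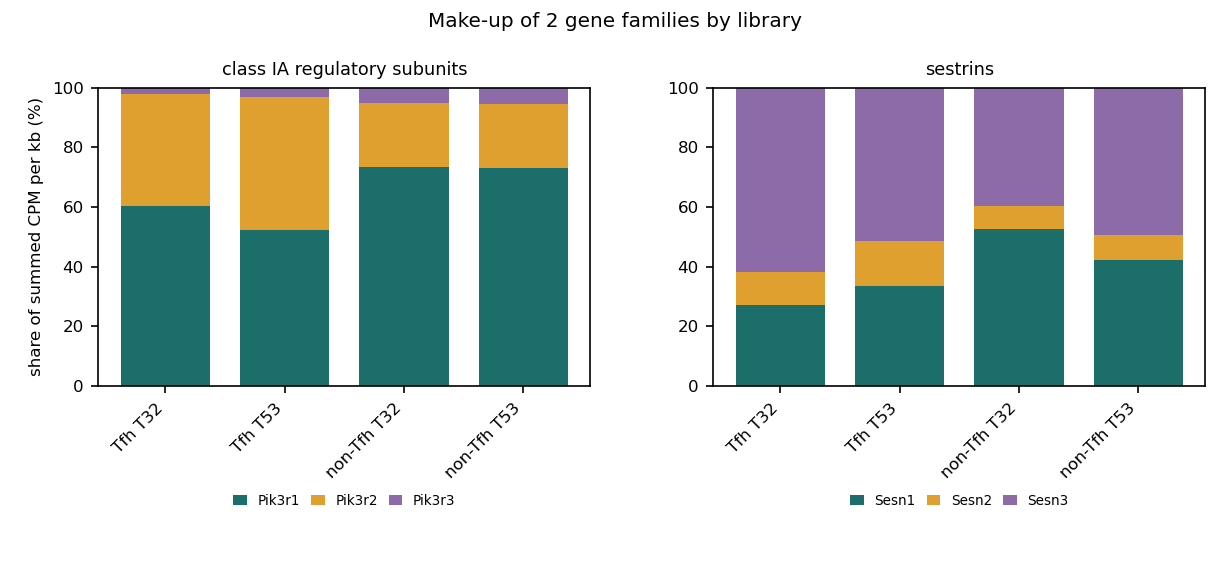
Share (%) of each gene in the summed CPM per kb of exon of its family, by library, for class IA regulatory subunits and sestrins. The Pik3r1 segment is 60.4% and 52.5% in the Tfh libraries, against 73.4% and 73.1% in the non-Tfh libraries.

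The catalytic subunits make PIP3 itself, and none of the 4 passed edgeR's test (2 had an unadjusted p under 0.05; DESeq2 and limma-voom also called 0). Pik3cd, the form that predominates in lymphocytes, had 487 and 448 CPM in Tfh cells, against 485 and 544 in non-Tfh cells; the change of -0.14 ± 0.133 on the log2 scale did not pass (adjusted p = 0.623). The groups overlapped. Per kilobase it was the most abundant of the 4 in each group, at 74.6 CPM per kb in Tfh and 82.2 in non-Tfh cells.

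Pik3ca had 216 and 199 CPM in Tfh cells, against 169 and 170 in non-Tfh cells (0.29 ± 0.113, adjusted p = 0.20). Pik3cg, the partner of Pik3r5, had 98.7 and 118 CPM in Tfh cells, against 73.2 and 88.0 in non-Tfh cells (0.42 ± 0.149, adjusted p = 0.155). Both Tfh libraries lay above both non-Tfh libraries for these genes, by less than the test required. Pik3cb was scarce, with 6.71 and 6.82 CPM in Tfh cells, against 4.40 and 6.75 in non-Tfh cells (0.29 ± 0.300, adjusted p = 0.652). Per kilobase, Pik3r5 stood at 0.160 and 0.135 of the level of Pik3cg in Tfh libraries, against 1.40 and 1.30 in non-Tfh libraries. Pik3r6, the other subunit known to pair with Pik3cg, had 0 counts in 3 libraries and 2 counts in non-Tfh T32.

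Pik3ip1 encodes a transmembrane protein that binds and inhibits PI3K and restrains T cell activation (chr11:3330401-3342971, plus strand). It had 29.9 and 27.3 CPM in Tfh cells, against 72.2 and 91.6 CPM in non-Tfh cells. No Tfh library came near the non-Tfh range. Pik3ip1 fell 2.85-fold (log2 fold change -1.51 ± 0.159, edgeR adjusted p = 0.00419), with -1.67 to -1.33 when a library was left out. Set per kilobase against the summed class IA catalytic subunits, it stood at 0.0683 and 0.0677 in Tfh, against 0.175 and 0.201 in non-Tfh libraries.

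Pik3ap1, an adaptor that links receptors to PI3K in B cells and myeloid cells (chr19:41272377-41385102, minus strand), was scarce: 2 and 2 counts in the Tfh libraries, against 18 and 18 in the non-Tfh libraries. It passed the count filter through the non-Tfh libraries alone. Its pooled count was 7.12-fold lower in Tfh cells (exact 95% interval 2.55 to 27.5, counting error only), and edgeR's adjusted p was 0.0489. The call was lost without any 1 of the 4 libraries (adjusted p 0.0891 to 0.313), with DESeq2 (0.181), under limma-voom (0.0669) and with edgeR's robust option off (0.0506). All 10 B cell markers summed to 145 and 141 CPM in the Tfh libraries, against 11.8 and 20.3 in the non-Tfh libraries. Without Cd22 and Pax5, set aside after their values were seen, the direction was the other way. Those sums were 0.419 and 1.40 CPM in the Tfh libraries, against 2.16 and 4.95 in the non-Tfh libraries. The macrophage and monocyte markers summed to 4.95 and 4.90 CPM, against 2.61 and 7.20. The dendritic cell markers summed to 2.60 and 3.15 CPM, against 3.21 and 6.75, and the granulocyte markers to 0.168 and 0, against 0.149 and 0.225. Their part in the difference was not tested.

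The lipid phosphatases, which degrade PIP3 and its products, had no called gene among 3 (1 at an unadjusted p under 0.05; 0 with DESeq2 or limma-voom). Inpp5d, which encodes SHIP-1, averaged 207 ± 6.93 CPM in Tfh and 164 ± 8.04 in non-Tfh cells (means with SD, n = 2 each; edgeR adjusted p = 0.136). Inpp4a averaged 78.8 ± 15.7 and 58.0 ± 10.9 (adjusted p = 0.259). Inpp4b, the most abundant of the 3 per kilobase, averaged 551 ± 6.03 CPM in Tfh and 685 ± 108 in non-Tfh cells (adjusted p = 0.301). Groups did not overlap for any of the 3, with Inpp5d and Inpp4a higher and Inpp4b lower in Tfh cells. Across all genes tested, 52.2% had groups that did not overlap.

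Akt and its activator differed little. Pdpk1, the kinase that activates Akt, averaged 184 ± 16.0 CPM in Tfh and 188 ± 13.5 in non-Tfh cells (log2 fold change -0.032 ± 0.126). Akt1 averaged 115 ± 2.82 in Tfh and 116 ± 10.4 CPM in non-Tfh cells (-0.013 ± 0.118). Akt2 averaged 135 ± 12.9 in Tfh and 132 ± 7.94 CPM in non-Tfh cells (0.030 ± 0.124). Their groups overlapped and their edgeR adjusted p ran from 0.922 to 0.972; no other tool run called any of them, and none had an unadjusted p under 0.05.

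Phlpp1, a phosphatase that inactivates Akt, had 37.8 and 72.2 CPM in Tfh cells, against 23.9 and 23.97 CPM in non-Tfh cells. Both Tfh libraries were higher, but they lay far apart from each other. The log2 fold change of 1.18 ± 0.313 did not pass in edgeR (adjusted p = 0.0886); it was 1.60 without Tfh T32 (adjusted p = 0.00293) and 0.67 without Tfh T53 (0.151), and DESeq2 called it (0.0039). Phlpp2, of the same family, averaged 16.4 ± 2.78 CPM in Tfh and 15.0 ± 0.303 in non-Tfh cells (adjusted p = 0.791).

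Among the kinases further down, Gsk3a and Gsk3b, which Akt inhibits, averaged 60.9 ± 5.30 and 137 ± 16.8 CPM in Tfh cells, against 63.2 ± 2.52 and 148 ± 17.3 in non-Tfh cells, with overlapping groups. Sgk1, a relative of Akt that mTORC2 activates, had 63.4 and 33.6 CPM in Tfh cells, against 91.5 and 75.3 CPM in non-Tfh cells. Tfh T53 was the lowest and the groups did not overlap, yet the gene did not pass (log2 fold change -0.76 ± 0.306, edgeR adjusted p = 0.235). Tsc1 and Tsc2, which together switch off the mTORC1 activator Rheb, averaged 69.4 ± 7.67 and 57.5 ± 7.50 CPM in Tfh cells, against 66.1 ± 9.07 and 50.3 ± 7.92 in non-Tfh cells. Rheb averaged 50.8 ± 2.58 CPM in Tfh and 45.9 ± 5.12 in non-Tfh cells. The adjusted p of these 3 ran from 0.585 to 0.845, with overlapping groups.

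**Figure D3:**
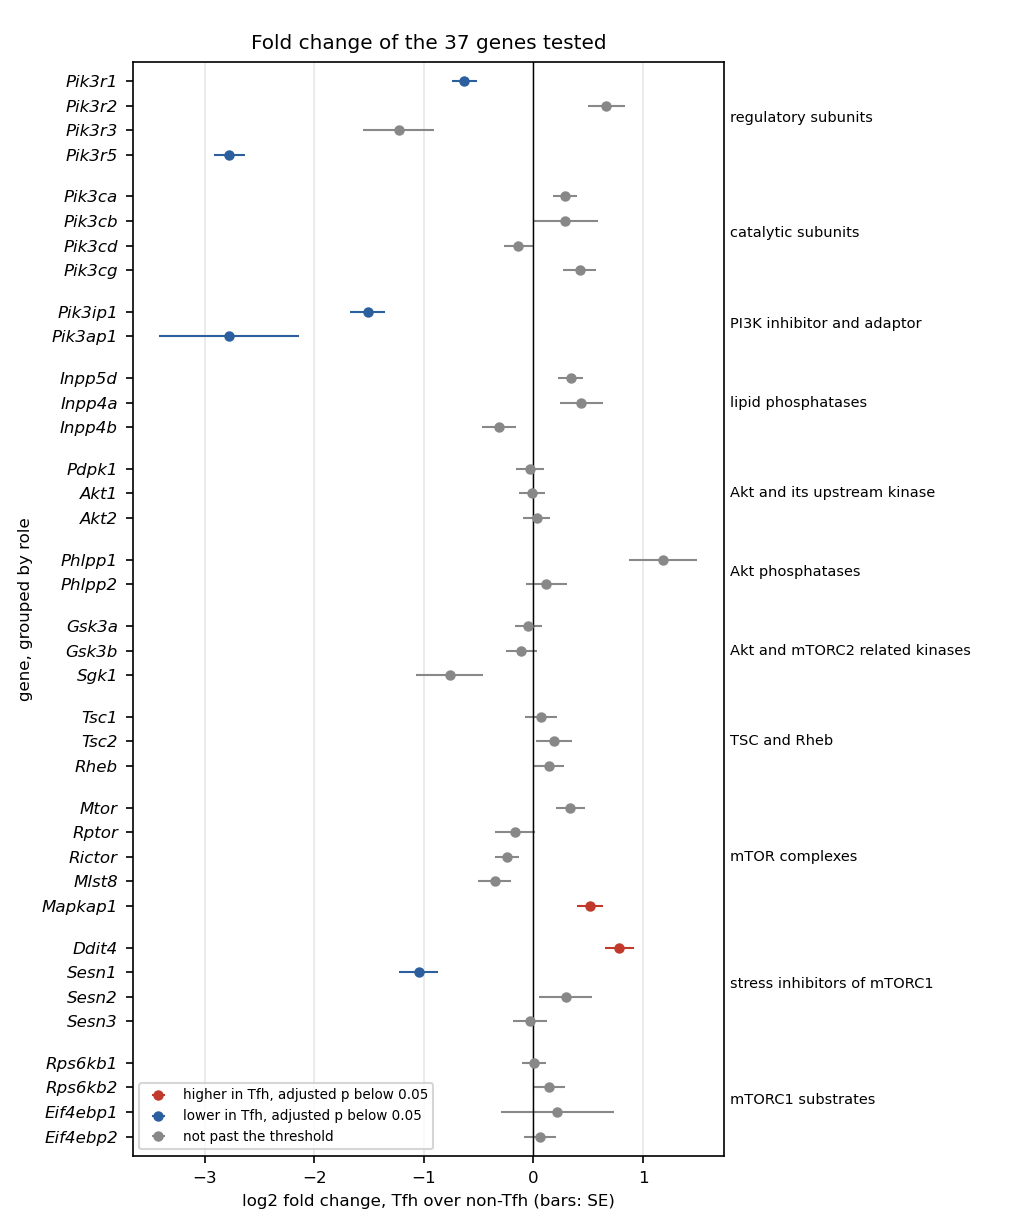
Log2 fold change of Tfh over non-Tfh cells for the 37 genes tested, with SE, grouped by role; red and blue mark adjusted p below 0.05 in edgeR. Pik3r5 and Pik3ap1 lie lowest at -2.77 and -2.78, while Pdpk1, Akt1 and Akt2 lie at -0.032, -0.013 and 0.030. The value of Pik3ap1 rests on 2 and 2 counts in the Tfh libraries, against 18 and 18 in the non-Tfh libraries.

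Mtor, the kinase of both mTOR complexes, had 112 and 129 CPM in Tfh cells, against 89.9 and 101 CPM in non-Tfh cells. The groups did not overlap, and the gene did not pass (log2 fold change 0.34 ± 0.130, edgeR adjusted p = 0.193). Rptor, the scaffold of mTORC1, averaged 71.8 ± 9.25 CPM in Tfh and 80.5 ± 16.8 in non-Tfh cells (adjusted p = 0.666). Rictor, the scaffold of mTORC2, averaged 187 ± 5.78 in Tfh and 221 ± 3.69 CPM in non-Tfh cells (adjusted p = 0.278), and Mlst8, shared by both, averaged 17.7 ± 1.13 and 22.6 ± 0.337 CPM (adjusted p = 0.246).

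The called gene of the mTOR complexes was Mapkap1, which encodes the mTORC2 subunit SIN1 (chr2:34406771-34624950, plus strand). It had 68.6 and 74.9 CPM in Tfh cells, against 48.5 and 51.4 CPM in non-Tfh cells. Each Tfh library was higher than each non-Tfh library. Mapkap1 rose 1.43-fold (0.52 ± 0.120, edgeR adjusted p = 0.0497), a value at the threshold: the log2 fold change was 0.47 to 0.59 when a library was left out, and the call was lost under 10 of 13 alternatives.

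The stress-induced inhibitors of mTORC1 moved in both directions. Ddit4, which encodes REDD1 and acts through the TSC complex (chr10:59949669-59951834, minus strand), had 111 and 132 CPM in Tfh cells, against 67.0 and 73.9 CPM in non-Tfh cells. Both Tfh libraries were higher. Ddit4 rose 1.72-fold (log2 fold change 0.79 ± 0.134, edgeR adjusted p = 0.0189), and the call was lost without Tfh T53 (0.0828).

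Sesn1, a sestrin that in human cells holds back mTORC1 when leucine is short (chr10:41809935-41908424, plus strand), had 24.1 and 29.4 CPM in Tfh cells, against 61.2 and 48.1 CPM in non-Tfh cells. Both Tfh libraries were lower, without overlap. Sesn1 fell 2.06-fold (-1.04 ± 0.178, edgeR adjusted p = 0.0194), and the call was lost without Tfh T32 (0.0761). Its relatives did not pass: Sesn2 averaged 10.2 ± 2.18 CPM in Tfh and 8.21 ± 0.327 in non-Tfh cells (adjusted p = 0.560), and Sesn3 averaged 191 ± 25.5 and 195 ± 27.0 (0.949). Per kilobase, Sesn1 made up 27.2% and 33.4% of the 3 sestrins in Tfh, against 52.6% and 42.3% in non-Tfh libraries.

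The substrates of mTORC1 that carry its signal to the ribosome had no called gene among 4 (0 at an unadjusted p under 0.05, and 0 with DESeq2 or limma-voom). The S6 kinase Rps6kb1 averaged 80.7 ± 3.14 CPM in Tfh and 80.6 ± 2.69 in non-Tfh cells (log2 fold change 0.0039 ± 0.112). Rps6kb2 averaged 26.4 ± 0.774 in Tfh and 23.8 ± 1.22 CPM in non-Tfh cells. The translation repressors Eif4ebp1 and Eif4ebp2 averaged 3.40 ± 2.08 and 59.8 ± 9.69 CPM in Tfh cells, against 3.01 ± 1.23 and 57.1 ± 1.81 in non-Tfh cells. Exons on the opposite strand overlap 23.7% of the exon length of Rps6kb2 (Ptprcap), 22.5% of that of Mlst8 (Bricd5) and 28.3% of that of Gsk3a, and the sources used here do not say whether counting used strand, so reads of these pairs cannot be told apart. Of the 7 called genes, Pik3ip1 alone had such an overlap, over 2.13% of its exon length.

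The other genes of the pathway were described by 6 lists of 133 genes, of which 121 were tested. In edgeR 2 were higher and 6 lower in Tfh cells (6.61%, beside 8.49% of all genes), with a median log2 fold change of -0.011. Icos, which recruits PI3K in Tfh cells, had 319 and 345 CPM in Tfh cells, against 439 and 406 in non-Tfh cells (-0.35 ± 0.124, adjusted p = 0.159). Foxo1, a factor that Akt excludes from the nucleus, had 164 and 208 CPM in Tfh cells, against 230 and 301 in non-Tfh cells (-0.52 ± 0.183, adjusted p = 0.160).

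Among 18 other Akt regulators and targets tested, 2 rose and 2 fell (22.2% called, beside 8.49% of all genes). The lists were chosen with earlier results of these data known, so this share is a description and no test. Tbc1d4, a Rab regulator that Akt phosphorylates to bring glucose transporters to the membrane, had 747 and 1148 CPM in Tfh cells, against 282 and 283 in non-Tfh cells. It rose 3.35-fold (1.75 ± 0.220, edgeR adjusted p = 0.0082), with 1.42 to 2.03 when a library was left out. Of the tribbles pseudokinases, Trib1 had 47.7 and 74.9 CPM in Tfh cells, against 21.9 and 30.4 in non-Tfh cells, and rose (1.22 ± 0.264, adjusted p = 0.0453). Its call was lost without Tfh T53 (adjusted p = 0.098), without non-Tfh T32 (0.162), without non-Tfh T53 (0.0707) and with limma-voom (0.0524). Trib2 had 215 and 218 CPM in Tfh cells, against 410 and 407 in non-Tfh cells, and fell 1.89-fold (adjusted p = 0.0075).

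Of 26 tested adaptors and PIP3-binding effectors 2 fell and none rose (7.69% called, beside 8.49% of all genes). Rasa3, which binds PIP lipids and inactivates Ras and Rap, had 139 and 99.9 CPM in Tfh cells, against 364 and 300.2 in non-Tfh cells, and fell 2.77-fold (-1.47 ± 0.193, edgeR adjusted p = 0.0092). Dock2, an activator of Rac that drives lymphocyte migration, had 781 and 837 CPM in Tfh cells, against 1285 and 1285 in non-Tfh cells, and fell 1.59-fold (adjusted p = 0.033). The call of Dock2 was lost without any 1 of the 4 libraries (adjusted p 0.0774 to 0.152).

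Of 31 amino acid sensing genes and mTOR partners tested, 1 fell (3.23%, beside 8.49% of all genes). This was Prr5l, an mTORC2 partner, with 0 and 1 count in Tfh cells, against 15 and 15 in non-Tfh cells. It passed the count filter through the non-Tfh libraries alone, and its pooled ratio was 23.7 in favour of non-Tfh cells (exact 95% interval 3.95 to 968). The edgeR adjusted p of 0.0487 was lost without any 1 library (0.068 to 0.273), with DESeq2 (0.11), under limma-voom (0.0585) and with the robust option off (0.0518). Of 8 genes of AMPK and LKB1 tested, 1 was called (12.5%, beside 8.49% of all genes). Prkab2, an AMPK subunit, fell 2.24-fold, with 4.87 and 6.30 CPM in Tfh cells, against 11.8 and 12.8 in non-Tfh cells (edgeR adjusted p = 0.0347). Its log2 fold change was -1.32 to -0.96 when a library was left out, and each time the call was lost. None of 26 further PI3K and phosphoinositide enzymes and none of 12 mTORC1 effectors was called by edgeR, DESeq2 or limma-voom, and 4 and 3 of them had an unadjusted p under 0.05 in edgeR.

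**Figure D4:**
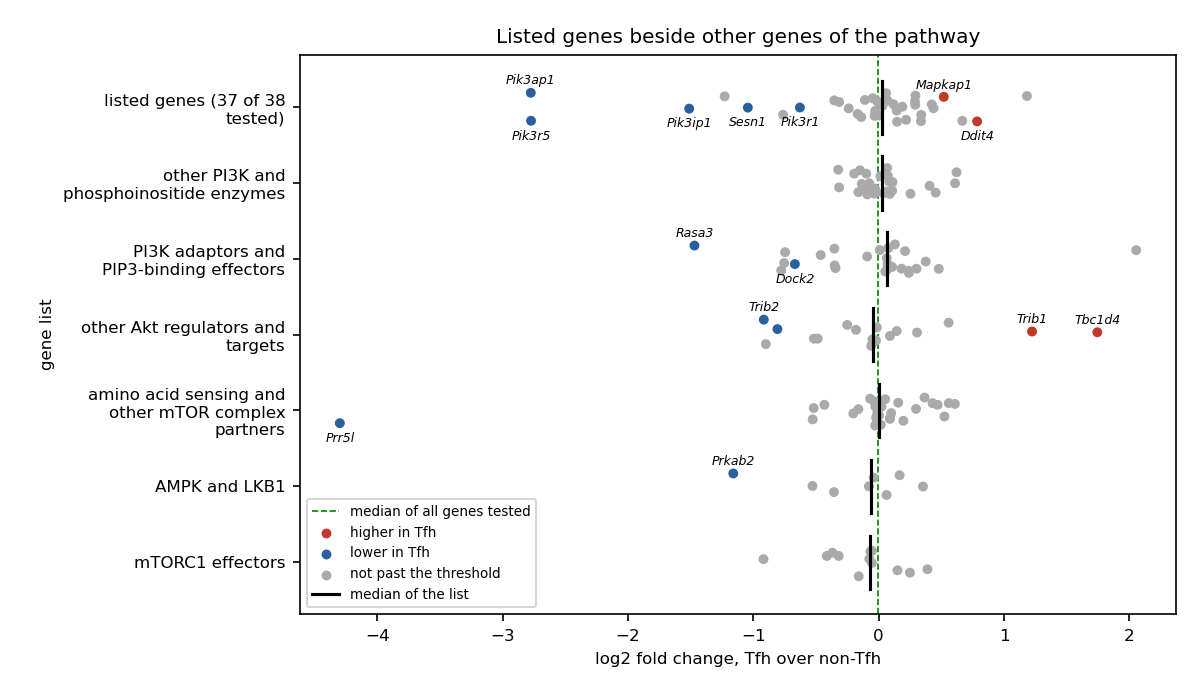
Log2 fold change of Tfh over non-Tfh cells for each tested gene of the listed set (top) and of 6 lists of other pathway genes; black bars are list medians and the dashed line is the median of all genes tested. List medians lie between -0.0703 and 0.0677; called genes are named save 1, and Dock2 and Mapkap1 lie close to genes that did not pass. The fitted value of Prr5l rests on 1 count in Tfh cells.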

How the data were processed

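RNA was sequenced from 2 Tfh and 2 non-Tfh samples. Per the values, the deposited tables are unnormalised counts for each Ensembl gene. HTSeq, TopHat2, Bowtie2 and the build GRCm38 (mm10) are named in the submitters' processing notes, with their versions, roles, annotation release and strand setting not given in the sources used here. Symbols, positions and exon lengths came from GENCODE M21 (GRCm38), which matched 37607 identifiers; the other 1572 stayed in the library totals. One count was worth 0.0746 to 0.175 CPM.

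Counts were fitted in R 4.3.3 with edgeR 4.0.16 (filterByExpr, TMM, robust quasi-likelihood, group alone, 2 residual degrees of freedom), two-sided, with Benjamini-Hochberg adjustment over 11702 genes at 0.05. Each SE was taken as the size of the log2 fold change divided by the root of its F statistic. Replicates differed by more than sampling noise (chi-square per degree of freedom 10.9 in Tfh and 17.5 in non-Tfh). The fit was repeated with 2 other count filters, without robust estimation, with a replicate block, without each library in turn, after removing mitochondrial genes and the top 10 by abundance, with upper-quartile or RLE scaling, and in limma-voom (limma 3.58.1) and DESeq2 1.42.0. The code was tested on simulated data. Tables and figures used Python 3.11.15, pandas 2.3.3 and matplotlib 3.10.9. Intervals cover counting error only.

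The members and lists were chosen with earlier results of these data known. Every member may be named; members that passed, had a log2 fold change of at least 1 either way, or encode catalytic subunits or mTOR have values per library, and other lists give called genes (up to 5) and Foxo1 and Icos; some genes under this rule are not reported here. Sgk1, Pik3r2 and Pik3r6 were given per library after their values were seen.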

Additional observations from a re-analysis of the deposited data

How the results depend on the processing

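Pik3r5, Pik3ip1, Rasa3, Trib2 and Tbc1d4 kept direction and call under all 13 alternatives; none of the 25 genes refitted one by one changed direction under any of them, and the other named genes were not followed. The listed genes higher in Tfh cells, 2 in all, numbered 1 with RLE scaling, limma-voom, the filter of 5 CPM, no robust option or without mitochondrial and the 10 most abundant genes, 6 without a count filter, and 0 to 2 with a library left out. Those lower, 5 in all, numbered 3 to 4 with a library left out. Other pathway genes higher numbered 1 with limma-voom, 8 without a count filter and 1 to 3 with a library left out; those lower numbered 14 without a filter and 2 to 5 with a library left out. Of all genes, 1006 were higher and 980 lower without a filter, and 298 to 454 higher and 247 to 438 lower with a library left out, fewest without Tfh T53. The cause was not tested.

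With a replicate block on the library number 7 listed genes were higher and 7 lower, other pathway genes numbered 13 and 14, and all genes 1067 and 1049. Deviations from the group means correlated at 0.372 between same-numbered libraries, with 2 pairs only. The titles share the numbers across the groups, but no label says what the numbers stand for. Whether the libraries are paired is thus not known, and the main fit did not pair them. The block added calls for Pik3r3 (adjusted p = 0.0261), Pik3cg (0.016), Mtor (0.0339), Foxo1 (0.00717) and Icos (0.0465). Without a count filter Pik3r3 (0.012), Phlpp1 (5.98e-10), Pik3cg (0.0386) and Foxo1 (0.00517) passed. Small values were not particular to these genes. That fit called 1006 of all genes higher and 980 lower, against 523 and 471 in the main fit. There the edgeR adjusted p of Pik3r5 was 1.28e-49, against 0.000385 in the main fit. With 2 libraries per group, genes that did not pass are not shown to be equal.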
